A study of Mus musculus with 9 samples.

Results

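The 9 genes described here encode transcription factors that mark and maintain retinal progenitors, the dividing cells from which all retinal neurons and Müller glia arise: Pax6, Rax, Six3, Six6, Lhx2, Sox2, Sox9, Nr2e1 and Meis2. They were chosen by name, with earlier results of these data known. All 9 are listed in both deposited tables, with 26 of 27311 transcripts in the comparison of mutant with heterozygote and 24 of 26586 in the comparison of knock-in with mutant. Bulk RNA was taken at E12.5 from the retinas of embryos of the CD-1 strain, in 9 samples forming 3 groups of 3. Heterozygotes carried Neurog2GFP/+, mutants carried Neurog2GFP/GFP, and the knock-in group carried the GFP allele and a knock-in coding sequence at the other Neurog2 allele. All 3 groups thus carry at least 1 GFP allele, and there is no group without it. Each sample was a pair of optic cups positive for GFP, taken apart with an enzyme, and no cell sort is named, so other cells of the cup can be present. Whether samples of 1 group are from different litters is not stated. The authors' test then measures only the spread between these samples, which may be a spread within 1 litter.

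Vertebrate eyes form from a field of neural tissue in which several of these factors are active together. Rax, Pax6, Six3, Six6 and Lhx2 are homeodomain proteins of this eye field and stay active in the progenitors of the optic cup. Sox2 and Sox9 are HMG-box proteins of neural progenitors, Nr2e1 (also called Tlx) is an orphan nuclear receptor of neural progenitors, and Meis2 is a TALE homeodomain cofactor. Neurog2 encodes a basic helix-loop-helix (bHLH) protein that promotes the step from progenitor to neuron. Some of the 9 genes are not limited to progenitors, since Pax6 and Meis2 are also active in some retinal neurons and Pax6 and Sox2 in the lens.

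The tables give 1 RPKM value (reads mapped to a transcript, scaled by its length and by the size of the library) per transcript and group, made by the authors from the pooled samples of a group. Values per sample are not analysed here, so no spread stands beside a level, the depth per sample is unknown and the order of the genes by level cannot be tested. The replicate error enters through the p and q of the authors' deposited tables, and a transcript is called changed at q of 0.05 or less. As a guide to precision, the log2 ratio was divided by the normal deviate that gives the authors' two-sided p, and the quotient is called its approximate error below. Neurog2 itself was at 30.2 RPKM in heterozygotes and 36.2 RPKM in mutants, so it was not lower without an intact allele (q = 0.993 in the authors' deposited table). In the other table it rose from 35.5 RPKM in mutants to 112 RPKM under the knock-in label (q = 0.0104 in the authors' deposited table). These values do not separate coding from untranslated sequence and so do not check the loss of the coding part. Because they do not show the loss that the label names, the groups are called mutant-labelled and knock-in-labelled below. Signal from the 4 listed Y-linked genes was near 0 in the mutant-labelled group, with summed RPKM from 0 to 0.0168. It ran from 3.48 to 21.9 RPKM in heterozygotes and, in the other comparison, from 8.81 to 28.6 RPKM under the knock-in label. The mix of sexes thus differs between the groups in both comparisons. None of the 9 genes lies on X or Y, but whether sex affects their values was not tested. The sample titles also carry one number for heterozygote and mutant samples and another for knock-in samples, which cannot be told apart from the knock-in label.

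Pax6 was the most abundant of the 9 at 327 RPKM summed over its transcripts in heterozygotes, and 2.12% of all listed genes were higher. Six3 was at 96.3 RPKM, Lhx2 at 84.9 RPKM and Six6 at 84.8 RPKM, and fewer than 10% of genes were above each of them. Nr2e1 was at 61.4 RPKM, Rax at 50.6 RPKM and Sox2 at 33.9 RPKM. Meis2 at 18.6 RPKM and Sox9 at 7.07 RPKM were lowest, Sox9 with 67.8% of genes above it. Pax6, Six3, Lhx2 and Six6 thus held the upper places of the set. Lhx2 stood above Six3 in the mutant-labelled group, and Rax above Nr2e1 under the knock-in label.

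**Figure D1:**
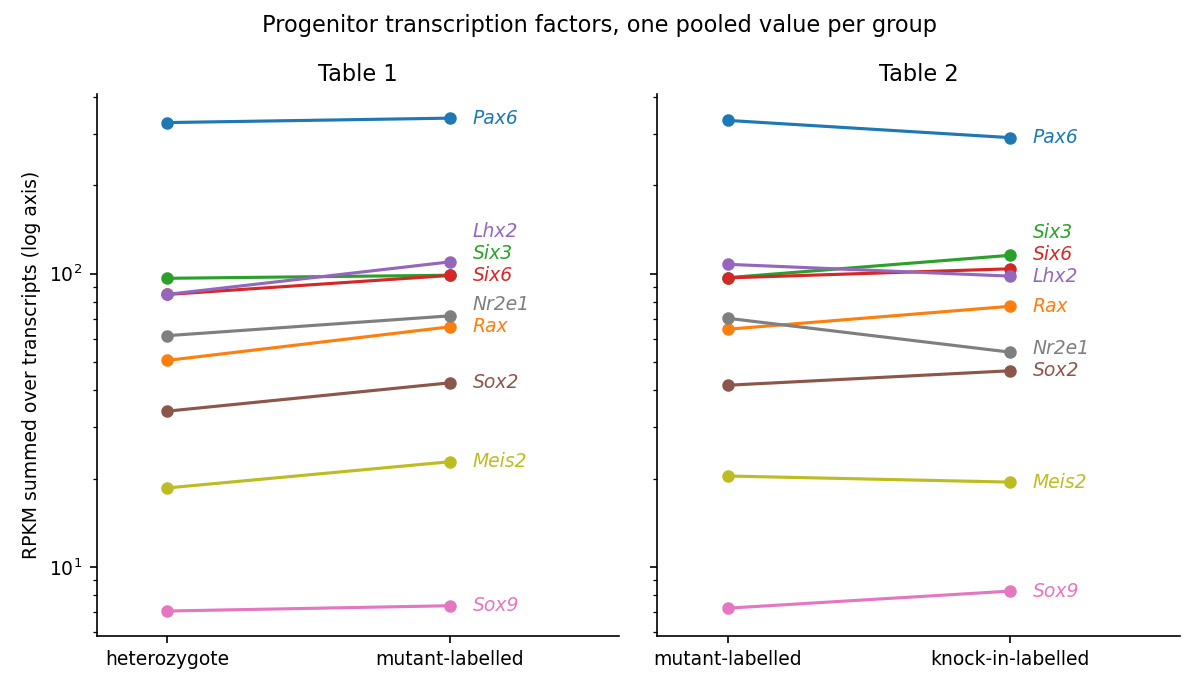
Summed RPKM of each factor (log axis) in the 2 groups of each deposited table, with 1 pooled value per group and no error bars because values per sample are not analysed here. Pax6 stays highest, between 291 and 339 RPKM, Sox9 lowest, between 7.07 and 8.26 RPKM, and no line departs far from the horizontal.

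Positions of 8 of the 9 genes are given here on mm10, from GENCODE. Pax6 lies on chromosome 2 from 105668900 to 105697364 and Lhx2 on the same chromosome from 38339281 to 38369733, both on the plus strand, while Meis2 is there on the minus strand from 115863064 to 116065839. Six3 spans 85613608 to 85629302 on chromosome 17, Six6 72939892 to 72944899 on chromosome 12, Sox2 34650405 to 34652461 on chromosome 3 and Sox9 112782224 to 112787760 on chromosome 11, all on the plus strand. Nr2e1 is on the minus strand of chromosome 10, from 42561963 to 42583632. The authors' loci are wider for several of them, because they hold neighbouring genes. The Six3 locus also holds Six3os1, the Six6 locus 4930447C04Rik, the Pax6 locus Pax6os1 and the Sox2 locus Sox2ot. The sources used here do not say that strand was used in counting, so reads of a gene and of an overlapping antisense partner cannot be told apart with certainty.

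Because the groups differ in alleles of a bHLH gene, the promoters of the 9 genes were searched for CANNTG, the E-box that bHLH factors bind. RefSeq starts were found for 7 of the 9 genes, with 9 promoters in all (GRCm38.p6, the same assembly as mm10), and the 250 bases before each start were read. CANNTG, which reads the same on both strands, was present in 2 of these 9 promoters and in 66.2% of 32851 promoters of the same length. Of the forms that CANNTG includes, CAGCTG was present in 0 of the 9 and in 13.0% of all. The form CATATG was in 0 of the 9 and in 3.46% of all. The form CAGATG, read on both strands, was in 0 of the 9 and in 14.4% of all. The homeodomain core TAATTA, no form of the E-box, was likewise in 0 of the 9 and in 4.84% of all. A match or its absence in so short a window is a description of these letters and not of binding. The sequences below are those of the genes with a listed promoter and an unadjusted p below 0.05 in either table (the more upstream start for Lhx2), shown because they had the lowest p of the genes with a listed promoter, although none of their transcripts was called. Each is written 5′ to 3′ on the strand of the gene and ends before the first annotated base, with CANNTG in capitals. They are chr10:42583633-42583840, minus strand, for Nr2e1, chr2:38339031-38339280, plus strand, for Lhx2 and chr3:34649745-34649994, plus strand, for Sox2.
Nr2e1: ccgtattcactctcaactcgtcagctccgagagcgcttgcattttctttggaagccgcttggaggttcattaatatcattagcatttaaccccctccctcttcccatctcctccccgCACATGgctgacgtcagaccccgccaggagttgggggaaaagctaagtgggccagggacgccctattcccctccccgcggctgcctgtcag
Lhx2: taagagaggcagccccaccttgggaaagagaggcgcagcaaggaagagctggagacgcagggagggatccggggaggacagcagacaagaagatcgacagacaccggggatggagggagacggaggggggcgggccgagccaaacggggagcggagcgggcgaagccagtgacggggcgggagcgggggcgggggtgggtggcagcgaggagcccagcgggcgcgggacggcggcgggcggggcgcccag
Sox2: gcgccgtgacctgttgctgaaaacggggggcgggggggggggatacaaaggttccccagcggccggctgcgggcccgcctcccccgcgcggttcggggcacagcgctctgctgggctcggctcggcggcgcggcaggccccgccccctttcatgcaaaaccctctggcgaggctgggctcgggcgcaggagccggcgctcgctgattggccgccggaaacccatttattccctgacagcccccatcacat
Of the 3, the Nr2e1 promoter alone holds the motif, as CACATG at -133 from the RefSeq start. The other match among the 9 was CAAATG at -20 in the more downstream of the Pax6 promoters. The Lhx2 and Sox2 stretches are rich in G and C, at 72.8% and 72% against 58% of all 250 bases at Nr2e1.

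The first question of the design is what a GFP allele in place of the remaining Neurog2 allele changes in these progenitor factors. All 9 genes had higher summed RPKM in the mutant-labelled group, by log2 ratios from 0.03 to 0.38 with a median of 0.22, although Six3 was at -0.0006 once ratios were centred on the median of all genes. None of their 26 transcripts was called, where 0.608% of all transcripts were. Over all genes with a ratio, 54.7% were higher and the median was 0.03. The summed signal of the 9 was 765 RPKM in heterozygotes and 855 RPKM in the mutant-labelled group. In bulk tissue a different number of progenitors and a different amount of RNA per progenitor cannot be told apart.

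Rax, among the first genes of the eye field and required for optic cup growth, came closest to a call. It was at 50.6 RPKM in heterozygotes and 65.8 RPKM in the mutant-labelled group, a 1.30-fold difference (p = 0.0105, q = 0.477 in the authors' deposited table). On the log2 scale this is 0.38 with an approximate error of 0.15 and an approximate 95% interval from 0.09 to 0.67. The main transcript of Lhx2, a LIM homeodomain gene needed for optic vesicle patterning, was at 83.0 and 105.6 RPKM (p = 0.019, q = 0.651 in the authors' deposited table), a log2 ratio of 0.35. Sox2, which keeps neural progenitors competent to make neurons, was at 33.9 and 42.4 RPKM, a log2 ratio of 0.32 (p = 0.0464, q = 0.947 in the authors' deposited table). Of the 3 Nr2e1 transcripts, the one at 19.7 and 28.4 RPKM had a log2 ratio of 0.53 (p = 0.0488, q = 0.961 in the authors' deposited table). These 4 transcripts of 26 are all that had an unadjusted p below 0.05, a share of 15.4%, all in the higher direction, where 2.21% of all transcripts were higher and 5.18% in either direction had such a p. None of them passes the adjustment over the table.

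The remaining factors lay nearer to 0. Six6, a close relative of Six3 that promotes progenitor proliferation, was at 84.8 and 98.5 RPKM (log2 ratio 0.22, approximate interval -0.09 to 0.52). The main Six3 transcript was at 86.2 and 91.3 RPKM (0.08, interval -0.49 to 0.65). That of Pax6 was at 177 and 182 RPKM (0.04, interval -0.36 to 0.43). Sox9, later a gene of Müller glia, was at 7.07 and 7.37 RPKM (0.06, interval -0.27 to 0.39). The intervals of Six3 and Pax6 reach above the ratio of Rax, so these data do not show that Rax differed more than they did. Meis2 was at 18.6 and 22.8 RPKM summed over 7 transcripts, none with an unadjusted p below 0.262.

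**Figure D2:**
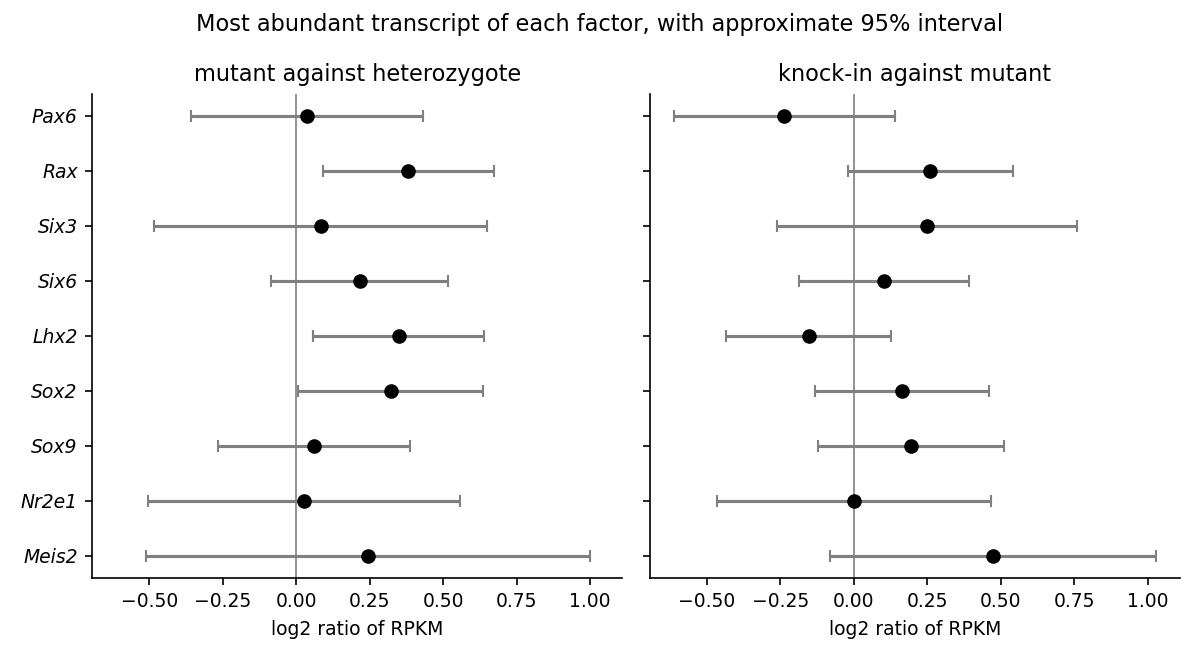
Log2 ratio of RPKM for the most abundant transcript of each factor (points) with approximate 95% intervals derived from the authors' p (bars), left for mutant against heterozygote and right for knock-in against mutant. The intervals of Rax, Lhx2 and Sox2 lie above 0 on the left, from 0.09, 0.06 and 0.005 upward, and every interval drawn on the right includes 0. The most abundant transcript was taken in each comparison, so the Nr2e1 transcript drawn differs between the panels. Not drawn are an Nr2e1 transcript with an interval from 0.003 to 1.05 on the left and one from -3.36 to -0.53 on the right.

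The size of change that the test called sets a limit. Among 802 genes with a single transcript and a mean of 30 to 120 RPKM in this table, 6 were called higher and 15 lower, and the smallest call was 0.52 upward (Itm2a) and 0.63 downward (Btg2), both named after their values were seen. The log2 ratios of Rax, Six6 and Sox2, which are single-transcript factors in this range, were smaller than these. So were the summed log2 ratios of the other factors, but those factors lie outside the range or have several transcripts. Sums over transcripts were not tested. The Nr2e1 transcript at 0.53, itself not called, was slightly above the smallest upward call.

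Other genes of the same cells were read beside the 9. Of 20 other eye field and progenitor transcription factors, 14 were higher and 6 lower in the mutant-labelled group, with a median log2 ratio of 0.09 and none called, where 1.34% of all genes were. Plagl1, a zinc finger gene of progenitors, was at 276 and 331 RPKM. Hes5, named after its values were seen, had the lowest p of the 20 and was lower, at 64.1 and 43.1 RPKM. It was not called (p = 0.001, q = 0.116 in the authors' deposited table). Of 15 further progenitor genes, 11 were higher and 4 lower, with a median of 0.16 and none called. Sfrp2, a secreted Wnt modulator, was at 1027 and 1304 RPKM and the intermediate filament gene Vim at 589 and 754 RPKM. Of 20 close relatives of the 9 factors, 10 are listed, 7 of them higher and 3 lower, with a median of 0.21 and none called. Among them, Meis1 was at 83.7 and 95.6 RPKM. As a list, markers of ganglion cells and young neurons stood apart from all of these lists. All 11 measured were lower and 7 were called lower, where 1.09% of all genes were, with a median of -0.995. Stmn2, a microtubule regulator of growing axons, fell from 268 to 129 RPKM and Elavl3, a neuronal RNA-binding protein, from 34.0 to 17.1 RPKM, both with a transcript at q = 0.0109 in the authors' deposited table. Whether fewer neurons in the tissue contribute to the higher progenitor values was not tested.

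The other question is what the inserted coding sequence changes in the absence of an intact Neurog2 allele. The 9 genes did not move together. Rax, Six3, Six6, Sox2 and Sox9 had higher summed RPKM and Pax6, Lhx2, Nr2e1 and Meis2 lower, with log2 ratios from -0.38 to 0.26 and a median of 0.10. None of their 24 transcripts was called, where 0.756% of all transcripts were. The median over all genes was -0.0021 and 49.7% were higher. The summed signal of the 9 was 838 RPKM in the mutant-labelled group and 813 RPKM under the knock-in label.

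Nr2e1, whose product represses differentiation genes in neural stem cells, showed the largest difference, and it lay in 1 transcript. That transcript was at 25.9 RPKM in the mutant-labelled group and 6.73 RPKM under the knock-in label, a log2 ratio of -1.94 with an approximate error of 0.72 (p = 0.0069, q = 0.291 in the authors' deposited table). In the other table the matching transcript was at 25.9 RPKM in heterozygotes and 26.4 RPKM in the mutant-labelled group. The other 2 Nr2e1 transcripts together were at 44.5 and 47.2 RPKM in the mutant-labelled and knock-in-labelled groups, a log2 ratio of 0.09. The share of the low transcript in the gene's signal was 42.2% in heterozygotes, 36.8% in the mutant-labelled group and 12.48% under the knock-in label. The gene's summed log2 ratio of -0.38 thus rests on this transcript. It is also the 1 transcript of 24 (4.17%) with an unadjusted p below 0.05, where 7.00% of all transcripts had one and 2.97% were lower with one. It was not called.

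Rax was at 64.6 and 77.3 RPKM in the mutant-labelled and knock-in-labelled groups, a log2 ratio of 0.26 (approximate interval -0.02 to 0.54, p = 0.0694 in the authors' deposited table). The main Six3 transcript was at 89.6 and 106.4 RPKM (0.25, interval -0.26 to 0.76) and Six6 at 96.6 and 103.8 RPKM (0.10, interval -0.19 to 0.39). Sox2 was at 41.6 and 46.6 RPKM (0.16, interval -0.13 to 0.46) and Sox9 at 7.23 and 8.26 RPKM (0.19, interval -0.12 to 0.51). The main Pax6 transcript was at 179 and 152 RPKM (-0.24, interval -0.61 to 0.14), and that of Lhx2 at 103.6 and 93.1 RPKM (-0.15, interval -0.44 to 0.13). All of these intervals include 0, so none of the directions is set by the authors' test. Among 794 single-transcript genes of 30 to 120 RPKM in this table, the smallest calls were 0.51 upward and 0.59 downward, for Ireb2 and Gje1, named after their values were seen.

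The split of signal between transcripts was steady for some factors and not for others. The leading Pax6 transcript held 54.1%, 53.6% and 52.2% of the gene's summed RPKM in heterozygotes, mutant-labelled and knock-in-labelled retinas. The leading Six3 transcript held 89.5%, 92.5% and 92.2%, and that of Lhx2 97.8%, 96.4% and 95.04%. Meis2 was spread over 7 transcripts in the first table and 5 in the second. Its transcript at 3.59 RPKM in heterozygotes and 8.69 RPKM in the mutant-labelled group took 19.3% and 38.1% of the gene, and 15.9% at 3.10 RPKM under the knock-in label, with approximate errors of 1.72 and 1.80 on the log2 scale. Another Meis2 transcript was at 6.76 and 9.39 RPKM in the second comparison (p = 0.094 in the authors' deposited table). A further Meis2 transcript was at 2.32 RPKM in heterozygotes and 0.00564 RPKM in the mutant-labelled group (p = 0.262 in the authors' deposited table). Even for this ratio the approximate 95% interval included 0, from -23.9 to 6.48 on the log2 scale. Rax, Six6, Sox2 and Sox9 are listed with a single transcript each.

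**Figure D3:**
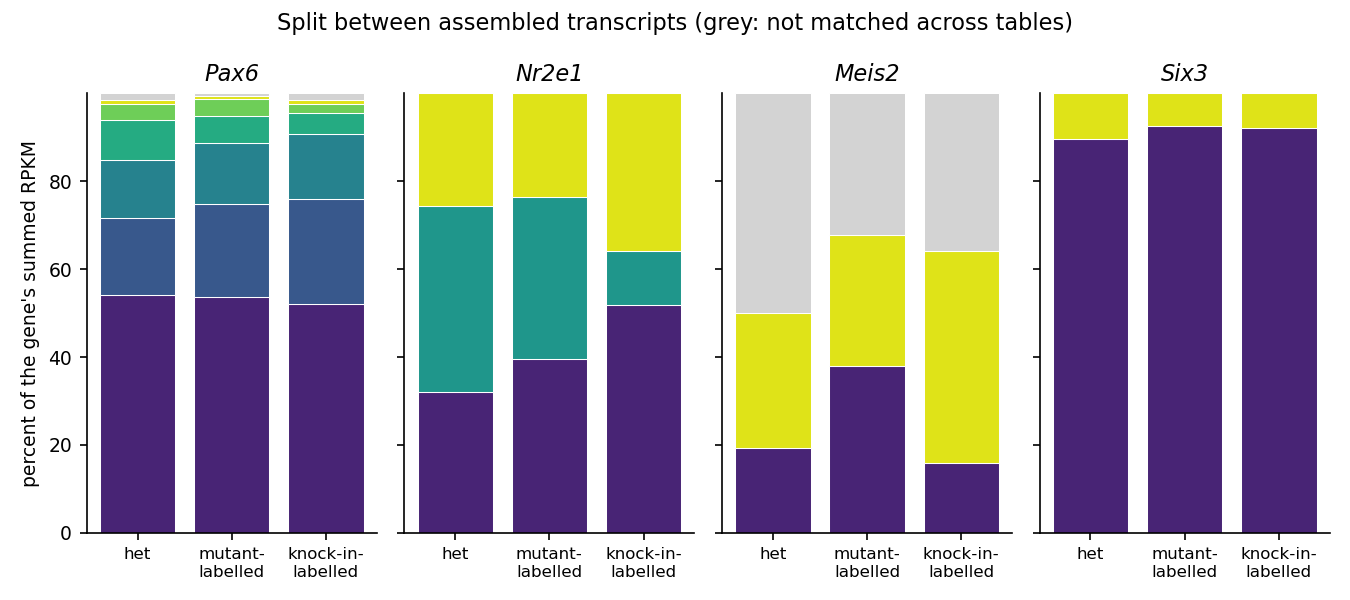
Share of each gene's summed RPKM (percent) held by its assembled transcripts in heterozygote (het), mutant-labelled and knock-in-labelled retinas, for Pax6, Nr2e1, Meis2 and Six3. Each coloured segment is 1 transcript matched between the tables and grey is the unmatched rest. The middle segment of Nr2e1 narrows from 36.8% to 12.48% between the mutant-labelled and knock-in-labelled bars, while the leading Pax6 segment stays between 52.2% and 54.1%.

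Among the overlapping genes, Six3os1 was at 197 and 214 RPKM in heterozygote and mutant-labelled retinas, and at 210 and 192 RPKM in mutant-labelled and knock-in-labelled retinas, above Six3 itself in each group. The gene 4930447C04Rik was at 32.2 and 32.3 RPKM, and at 31.7 and 23.4 RPKM. Sox2ot and Pax6os1, named after their values were seen, ran from 1.98 to 3.32 RPKM over all groups. None of the 5 listed partners was called in either comparison, where 1.34% and 1.67% of all genes were, so their count does not set them apart.

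Of the 20 other eye field and progenitor transcription factors, 9 were higher and 11 lower in the knock-in-labelled group, with a median of -0.10, and 1 was called, where 1.67% of all genes were called and 0.634% called lower. This was Hes5, a Notch target that holds cells in the progenitor state, at 42.3 and 21.3 RPKM and called lower at q = 0.0104 in the authors' deposited table. Hes5 was also lower, but not called, in the other comparison. Of the 15 further progenitor genes 8 were higher and 7 lower, with a median of 0.01, and of 10 listed relatives 5 were higher, with a median of -0.0045 and none called. All 11 neuron markers were higher, with a median of 0.45, and Pou4f2, a factor of ganglion cells, was the 1 called, from 30.5 to 70.9 RPKM. Markers of tissues around the retina were also higher in this group. All 9 listed pigment epithelium markers were higher and 7 called higher, where 1.03% of all genes were, with a summed level of 24.0 RPKM in the mutant-labelled group and 110.1 RPKM under the knock-in label. Rpe65, a defining marker, is not among the listed genes. Of 7 listed lens markers 6 were higher and 3 called (52.3 and 145.9 RPKM summed), with Foxe3 listed at 0 in the mutant-labelled group. All 5 blood markers were higher and 2 called (33.8 and 126.0 RPKM), and all 5 listed markers of periocular mesenchyme were higher and 2 called (6.77 and 18.8 RPKM). A gene below 1.04 RPKM in the mutant-labelled group is listed in this comparison only if the knock-in-labelled group reaches that level. Such genes, Tyrp1 and Foxe3 among them, could only be higher, so the counts of these lists are partly fixed by the listing. Listed in both comparisons were 5 pigment epithelium, 5 lens, 4 blood and 2 mesenchyme markers. Over these genes alone, the pigment epithelium sum was 22.2 RPKM in the mutant-labelled group and 97.2 RPKM under the knock-in label. The lens sum was 51.9 and 143.0 RPKM, the blood sum 33.6 and 124.4 RPKM and the mesenchyme sum 5.18 and 14.6 RPKM. In the other comparison the pigment epithelium sum over the same genes was 19.6 RPKM in heterozygotes and 22.7 RPKM in the mutant-labelled group, and the lens sum 72.2 and 52.5 RPKM. There the blood sum was 29.4 and 33.9 RPKM and the mesenchyme sum 8.11 and 5.28 RPKM. None of these markers was called there, where 1.34% of all genes were. Of the 5 pigment epithelium markers, 4 were higher there and Tyr lower, each with a transcript at an unadjusted p below 0.05. Over all transcripts, 5.18% had such a p. Of the optic stalk and ciliary margin markers, 5 were listed in the first comparison with none called, and 4 in the second with Gja1, a gap junction gene, called higher. Pax6 and Sox2 are also genes of the lens, and the part of these tissues in the values of the 9 factors was not tested.

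**Figure D4:**
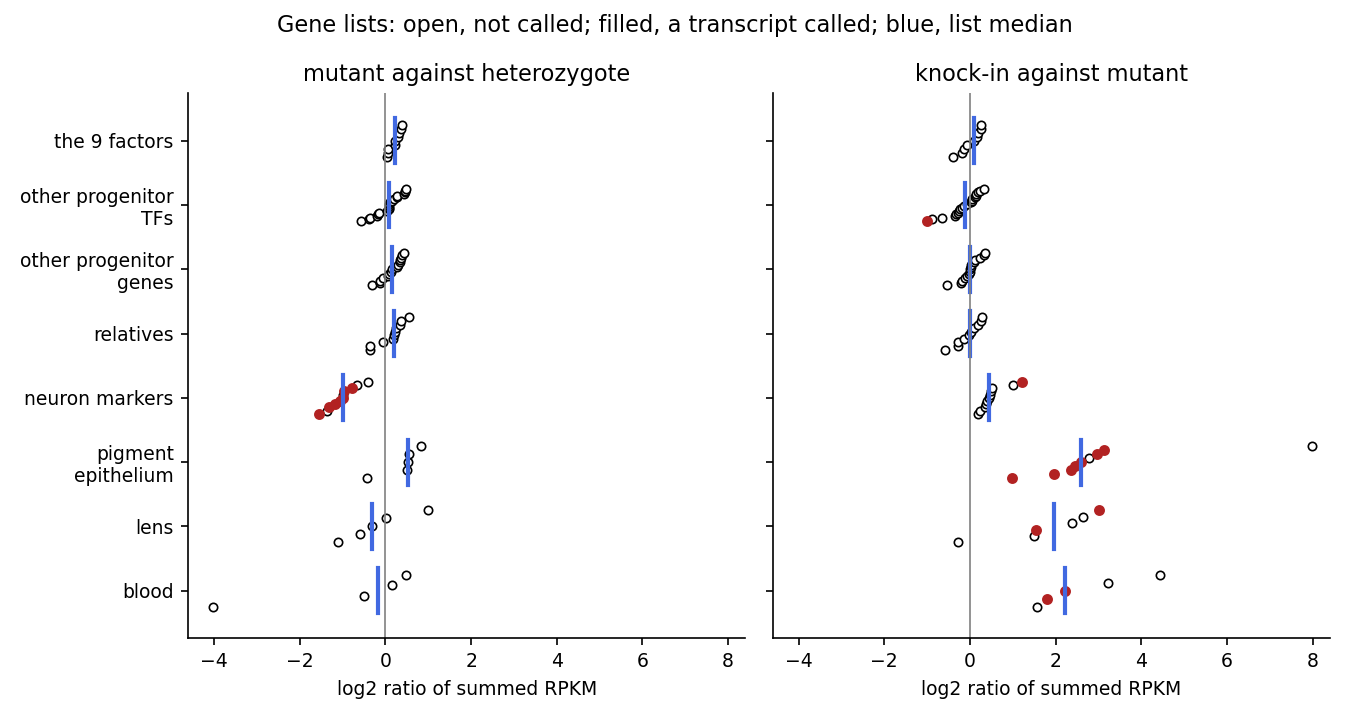
Log2 ratio of summed RPKM for the genes of 8 lists in both comparisons, with points for genes (filled where a transcript was called) and blue bars for list medians; Foxe3 has no ratio and is not drawn. The 9 factors lie between 0.03 and 0.38 on the left and between -0.38 and 0.26 on the right. They are close to 0 beside the neuron markers (median -0.995, then 0.45) and the pigment epithelium markers (median 0.53, then 2.60). The pigment epithelium medians are over 5 and then 9 genes, and over the 5 listed in both comparisons the second was 2.36.

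Both comparisons use the mutant-labelled samples, and the tables were normalized separately, so knock-in-labelled and heterozygote values can only be set side by side. The 2 mutant values of a gene differed little, with a median log2 ratio of -0.03 over 5053 single-transcript genes and 98.6% of them within 0.05 of it. Adding the 2 log2 ratios, Rax was 1.56-fold and Sox2 1.40-fold of its heterozygote level in the knock-in-labelled group. Six6 was 1.25-fold, Six3 1.22-fold, Sox9 1.19-fold, Lhx2 1.18-fold and Meis2 1.17-fold of it. Pax6 was at 0.904 and Nr2e1 at 0.895 of the heterozygote level. These values have no test. Rax, Six3, Six6, Sox2 and Sox9 were higher at each step, and Pax6, Lhx2, Nr2e1 and Meis2 were higher and then lower.

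Rax and Nr2e1 lay farthest from 0 over the 2 log2 ratios, and the genes with the most similar pairs of ratios were looked up among 6671 genes with at least 10 RPKM in every group. Over these 3 groups, the nearest to Rax were Sdha, 1110004E09Rik and Ndufb7, at distances of 0.00159, 0.0114 and 0.0115 on the log2 scale. Those nearest to Nr2e1 were Tmem47, Elovl6 and Rnf6, at distances of 0.00935, 0.0126 and 0.0162. With 42 genes within 0.1 of Rax and 155 within 0.1 of Nr2e1, such likeness over 3 group values is common.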

How the data were processed

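Bulk RNA was measured in 9 samples, 3 each of heterozygote, mutant and knock-in retinas, grouped by the labelled titles. Per the labels' protocols, the TruSeq RNA kit made the libraries. Per the submitters' processing notes, Bowtie2, Cufflinks and Cuffdiff were used on mm10, with tool versions not given in the sources used here. For each comparison the authors deposited a table with pooled RPKM values per transcript and group, the authors' test statistic (a score, not used here), and p-values and q-values. Recomputing q from the deposited p by Benjamini and Hochberg's method over each whole table gave the same values to within 5.26e-07.

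From these, RPKM was summed over the transcripts of a symbol and log2 ratios were computed without a pseudocount. Transcripts were matched between tables where mutant values agreed within 0.05 (log2) of the tables' offset and the numbering shift within the gene differed by at most 1, which matched 20. The smallest q of the tables is 0.0109 and 0.0104, and the depth per sample is unknown. Rows enter the tables only where a group reaches 0.906 and 1.04 RPKM. The adjustment and the approximate error were tested on simulated data. Named genes are all 9 factors, up to 4 called and the 2 most abundant genes of each list and the 3 nearest genes of 2 factors; exceptions are said to be so. The 9 factors and the 10 other lists were chosen with earlier results of these data known. Alternatives were other thresholds, a pseudocount, a minimum of 1 RPKM, the most abundant transcript alone and centring. The gene inserted in the knock-in allele is not reported here. Work used Python 3.11.15, pandas 2.3.3, NumPy 2.4.6, SciPy 1.17.1 and matplotlib 3.10.9.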

Additional observations from a re-analysis of the deposited data

How the results depend on the processing

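Of the 26 and 24 transcripts of the 9 factors, 0 were called in either comparison at q of 0.05 in the authors' Cuffdiff test, at q of 0.1, or when adjusted over transcripts of at least 1 RPKM alone. At an unadjusted p below 0.05 the count was 4 in the first comparison (mutant and heterozygote) and 1 in the second (knock-in and mutant). The median log2 ratio of the 9 ranged from 0.19 to 0.22 in the first comparison and from 0.10 to 0.16 in the second over the 4 alternatives. The width of each range was below the smallest approximate error of a single transcript of the factors (0.15 and 0.14). No error of the median itself was computed. Of 72 values of single factors under these alternatives, 3 had another sign. Six3 was at -0.0006 after centring in the first comparison, and with the most abundant transcript alone Nr2e1 was at 0.002 and Meis2 at 0.47 in the second. No paired analysis was possible because the tables hold pooled group values, and for the same reason no replicate could be left out. The unknown depth and the pooled values limit the precision.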

Other observations

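Taken over all transcripts of the 9 factors, the approximate error of a log2 ratio was larger at lower levels. In the comparison of mutant with heterozygote, its median was 0.18 over 8 transcripts of the 9 factors with a mean of at least 30 RPKM, 0.30 over 5 transcripts from 10 to below 30 RPKM and 0.92 over 13 transcripts below 10 RPKM. In the comparison of knock-in with mutant the medians were 0.17, 0.50 and 0.97 over 8, 4 and 12 transcripts. Sox9 departs from this order: its single transcript at 7.07 and 7.37 RPKM had an approximate error of 0.17 in the first comparison. Rax, Six6 and Sox2, also listed with a single transcript, had errors of 0.15, 0.15 and 0.16 there at higher levels. The main of the 2 Six3 transcripts had 0.29 at 86.2 and 91.3 RPKM. Level and the number of listed transcripts of a gene were not separated here.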
